A study of Mus musculus with 12 samples.

Results

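The genes described here are 28 genes of cholesterol synthesis and of its control, taken by symbol from the 32285 genes of the count files. The list rests on the pathway and not on a threshold of measured values, but it was drawn up with earlier results of these data known. Single cells of the epidermis of glabrous hind paw skin were profiled by 10x 3′ RNA sequencing in 12 libraries, each from 1 wild-type C57BL/6J mouse. There were 3 libraries each of males on regular diet (RD, 11% fat), males on high-fat diet (HFD, 42% fat, EnvigoTD88137), females on RD and females on HFD. All mice began at 6 to 8 weeks of age, spent 10 weeks on their diet and were 16 to 18 weeks old when the skin was taken. The question was which of these genes differ between epidermal cell classes, and which differ between HFD and RD within each sex. Because each library is 1 mouse, the p-values below measure the spread between 3 mice of a group.

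Cells make cholesterol from acetyl-CoA by the mevalonate pathway, which runs through isoprenoids to squalene, then to lanosterol, the first sterol, and on to cholesterol. The pathway is under feedback control: when sterol in the endoplasmic reticulum is low, SCAP carries the transcription factor SREBP2 (gene Srebf2) to the Golgi, where it is cut and released to turn on the genes of synthesis, and when sterol is high the INSIG proteins hold SCAP back. Differentiating keratinocytes use cholesterol, with ceramides and fatty acids, to build the lipid layers of the skin barrier. Of the 28 members, 7 encode mevalonate steps, 1 (Ggps1) makes geranylgeranyl diphosphate for protein prenylation, 3 make squalene and lanosterol and 9 act after lanosterol. Another 4 are the control genes Srebf2, Scap, Insig1 and Insig2, and 4 move or store sterol (Stard4, Npc1, Npc2 and Soat1). Where a summed enzyme level is given, it covers 18 synthesis enzymes, which are the mevalonate, squalene, lanosterol and after-lanosterol groups without Lbr, whose protein is also a receptor of the nuclear lamina.

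The stretches upstream of Hmgcs1, Srebf2 and Insig1 are shown because they belong to an early enzyme, the controlling factor and its feedback inhibitor. They were read from the RefSeq table of mouse promoters (build GRCm38.p6, plus strand) and printed 5′ to 3′, and capitals mark, on either strand, the CCAAT box, the GC box (letters GGGCGG) and a pattern of the sterol regulatory element to which SREBP2 binds (letters TCACNCCAC). The Hmgcs1 stretch is chr13:119690101-119690350 and ends at the RefSeq start, that of Srebf2 is chr15:82147019-82147180 and ends 88 bases before it, and that of Insig1 is chr5:28071162-28071362 and ends 49 bases before it. Each lies upstream of the annotated start of its gene.
Hmgcs1: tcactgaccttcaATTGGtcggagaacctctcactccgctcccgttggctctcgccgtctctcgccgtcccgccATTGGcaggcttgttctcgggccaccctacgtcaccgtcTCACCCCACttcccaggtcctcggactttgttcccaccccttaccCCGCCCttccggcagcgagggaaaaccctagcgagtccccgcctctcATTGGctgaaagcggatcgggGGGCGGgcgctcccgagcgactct
Srebf2: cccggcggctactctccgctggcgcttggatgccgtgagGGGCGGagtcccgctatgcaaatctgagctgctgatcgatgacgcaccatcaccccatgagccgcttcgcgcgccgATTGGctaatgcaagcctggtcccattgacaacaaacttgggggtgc
Insig1: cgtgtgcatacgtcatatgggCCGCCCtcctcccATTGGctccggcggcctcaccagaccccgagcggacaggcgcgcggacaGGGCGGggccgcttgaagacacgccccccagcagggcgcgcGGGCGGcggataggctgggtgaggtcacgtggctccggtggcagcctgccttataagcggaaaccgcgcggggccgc
The Hmgcs1 stretch held 1 sterol regulatory element pattern, 3 CCAAT boxes and 2 GC boxes. The Srebf2 stretch held 1 CCAAT box and 1 GC box, and the Insig1 stretch 1 and 3. Over the 250 bases upstream of every start in the table, 23 of the 28 members had 29 windows, and Fdps, Fdft1, Sqle, Stard4 and Npc1 had none. The sterol regulatory element pattern occurred in 1 of these 29 windows, that of Hmgcs1, and in 1.05% of all 32851 windows. A CCAAT box occurred in 21 of 29 member windows against 33.9% of all windows, a GC box in 22 of 29 against 32.7%, and both together in 17 of 29 against 11.0%. These are matches of letters only, and no binding was measured.

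The libraries held 134449247 to 194673581 unique molecular identifiers (UMIs, each counting 1 captured RNA molecule), and 6226 to 15193 cells per library passed the filters. Cells were clustered separately in males and females without using the 28 genes or 48 other listed genes of sterol and lipid metabolism, and clusters were named from fixed marker genes. The class names below are short for cells that resemble the class by those markers. Both sexes had basal, proliferating, volar (Krt9-bearing), suprabasal, terminally differentiated and migratory keratinocytes, Langerhans cell (LC)-like cells and T cell-like cells. A squamous class was found in females, and 3 male clusters that these markers could not name go by their leading genes Serpinb3a, Slc6a19 and Tubb3. A pair of libraries shared 15 to 70 cell barcodes, at most 0.564%. Levels of Xist and of Y-linked genes fitted the labelled sex in every library. Male RD replicate 2 stood apart in depth, with a median of 6577 UMIs per cell against 10161 to 15047.5 in the other male libraries, and female HFD replicate 2 had a median mitochondrial share of 2.66% against 1.98% to 2.13% in the other female libraries. Male matrices were counted with Cell Ranger 6.1.0 and female matrices with Cell Ranger 7.2.0, so sex and software version cannot be told apart and no level is compared between the sexes.

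Levels are counts per 1000000 UMIs (CPM) of the same class and library, given as mean ± SD over the 6 libraries of a sex. Because they count 3′ ends without regard to length or capture, each gene was compared only with itself across classes. Classes were made from these same cells, so their differences are described without a test. The enzymes of the pathway were low in basal and proliferating cells and high in differentiating cells. In males the summed level of the 18 enzymes was 508 ± 81.1 CPM in basal, 546 ± 65.6 in proliferating, 1068 ± 115 in volar and 2172 ± 219 in suprabasal cells, where it was 4.31-fold the basal level (range over libraries 3.74 to 5.22). It was higher still in the Serpinb3a-led and Slc6a19-led clusters, at 2904 ± 206 and 2897 ± 194 CPM, and it was 698 ± 85.3 CPM in terminally differentiated cells. In females it was 487 ± 44.8 CPM in basal, 614 ± 69.3 in proliferating, 852 ± 36.5 in volar, 1705 ± 191 in suprabasal and 2810.0 ± 202 in squamous cells, the last 5.79-fold the basal level (5.39 to 6.45). In female terminal cells it was 510.3 ± 55.4 CPM, 1.05-fold the basal level (0.924 to 1.11). Female terminal and volar values depend on how finely the cells were clustered: at 2 times the resolution they were 1070 and 1313 CPM. Within a library proliferating cells were above basal cells by little, in 6 of 6 libraries of each sex (1.00-fold to 1.15-fold in males, 1.17-fold to 1.34-fold in females), and suprabasal and squamous cells were above basal cells by far more, also in every library.

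**Figure D1:**
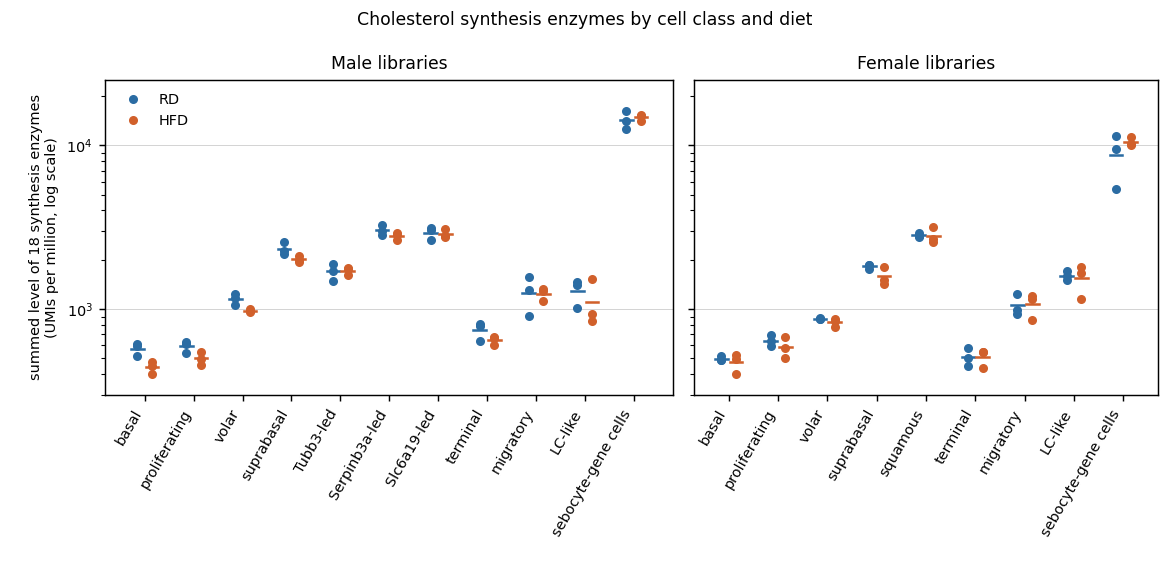
Summed level of the 18 synthesis enzymes (CPM, log axis) by cell class, with 1 point per library (blue RD, orange HFD) and a bar at the mean of the 3 libraries of a diet, males and females in separate panels. The sums climb from basal to suprabasal and squamous cells and are far lower in the terminal class as clustered here, and cells carrying sebocyte genes lie above every keratinocyte class.

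Most members followed the summed level one by one. In male suprabasal cells 22 of 27 members with UMIs in every library compared were higher than in basal cells in all 6 libraries, 20 of them over 2-fold on average, and 3 (Ggps1, Insig2 and Npc2) were lower in all 6. In female suprabasal cells 23 of 28 were higher in all 6 libraries, and 5 (Ggps1, Scap, Insig2, Npc2 and Soat1) were lower. In squamous cells 23 of 27 were higher, with a median of 4.69-fold. These orders were not counted over all genes, so the counts do not set the members apart from other genes. The steepest of the mevalonate steps were Pmvk, which phosphorylates phosphomevalonate, and Mvd, which makes isopentenyl diphosphate. Pmvk went from 45.3 ± 8.57 CPM in male basal cells to 430.1 ± 51.9 CPM in suprabasal cells, 9.58-fold (8.00 to 10.9 over libraries), and in females from 25.5 ± 3.05 to 241 ± 23.5 CPM, 9.46-fold. Mvd was 10.6-fold higher in male suprabasal than basal cells and 18.8-fold higher in female squamous than basal cells. Hmgcs1, which makes the HMG-CoA that enters the pathway, was 3.51-fold higher in male and 2.63-fold higher in female suprabasal than basal cells. Ggps1, which draws on the same isoprenoid pool for prenylation, went the other way from the enzymes, from 32.6 ± 1.82 CPM in female basal to 16.1 ± 1.18 CPM in squamous cells.

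Lbr, a sterol reductase anchored in the inner nuclear membrane, was highest in proliferating cells, at 86.5 ± 4.13 CPM in males and 89.2 ± 11.0 CPM in females, 3.49-fold (3.06 to 4.28) and 3.44-fold the basal level. Stard4, a cytosolic carrier of cholesterol, was also high in the terminal class, at 115 ± 10.9 CPM against 6.98 ± 1.98 in basal cells of males, 17.0-fold (11.8 to 25.9), and at 75.6 ± 16.9 against 6.37 ± 1.33 in females. It was higher still in female squamous cells, at 162 ± 17.8 CPM (25.8-fold the basal level), and in the male Slc6a19-led cluster (26.2-fold). Insig1 and Insig2 differed from each other. Insig1 was 3.57-fold higher in male suprabasal than basal cells and 3.61-fold higher in terminal cells, whereas Insig2 was lower in suprabasal cells (0.646-fold) and higher in terminal cells (1.90-fold). In the terminal class the gene of the controlling factor itself, Srebf2, was at 26.8 ± 6.24 CPM in males and 28.8 ± 8.77 in females, the lowest mean of any class of the same sex.

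**Figure D2:**
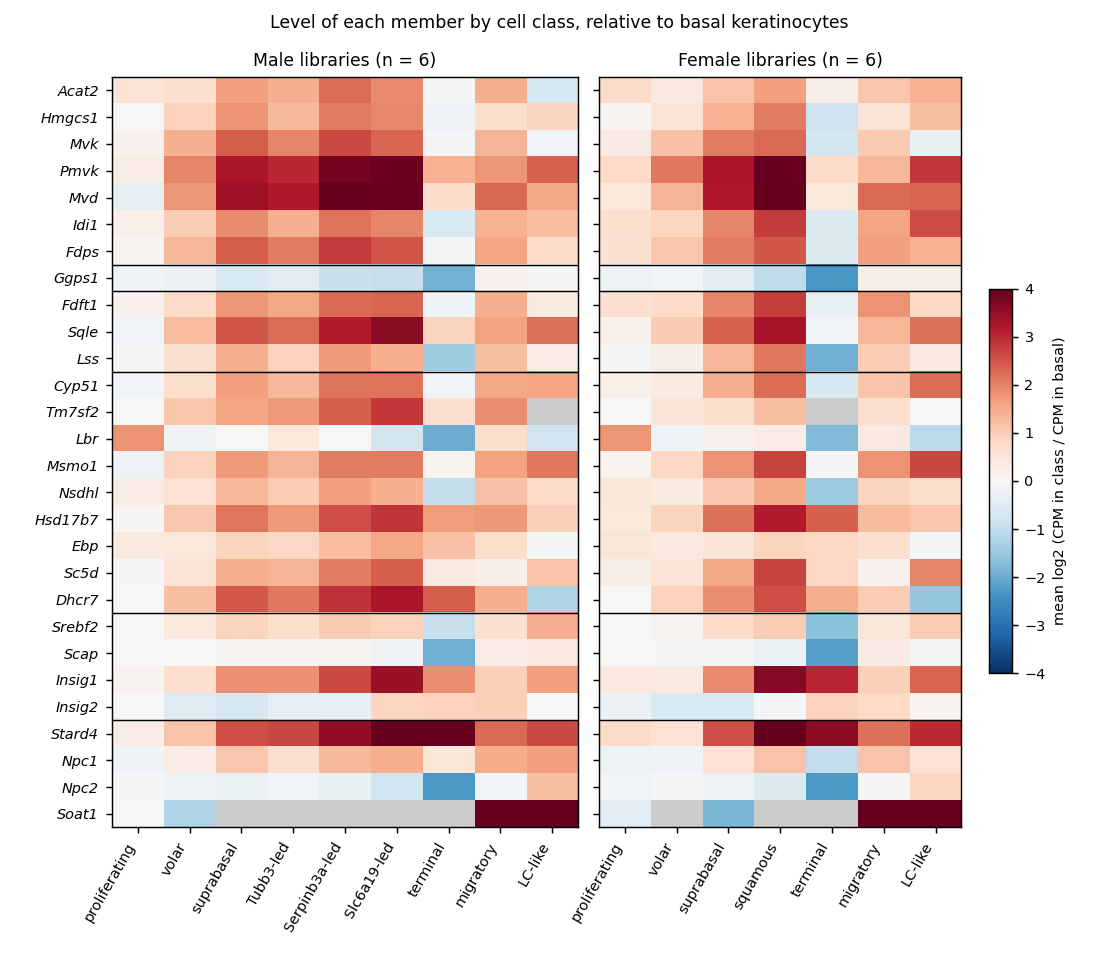
Log2 ratio of each member's level to its level in basal cells (colour, limited at ±4), one row per member and one column per class, mean over 6 libraries, males left and females right, with grey where a library held no UMI. Most rows are highest in suprabasal, squamous or the Serpinb3a-led and Slc6a19-led clusters, Lbr is highest in proliferating cells, and Soat1 stands out in migratory and LC-like cells.

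The migratory class, named from Krt79, Defb6, Cst6 and similar markers, held a small group of cells with far higher levels. These cells were sought after the values of the class had been seen. They carried UMIs of at least 2 of 4 fixed sebocyte markers (Cidea, Awat2, Elovl3 and Pparg, leaving out the fifth listed marker Mgst1, which keratinocytes carry), sebocytes being the lipid-filled cells that make sebum. Among migratory cells with at most 5% mitochondrial UMIs they were 85 of 2903 in males (2.93%) and 64 of 3441 in females (1.86%), against 13 of 59244 and 18 of 60787 cells of the other classes. Among migratory cells with 5% to 10% mitochondrial UMIs, which the study's stated limit would remove, they were 157 of 544 in males (28.9%) and 57 of 166 in females (34.3%). Taking both ranges, the summed enzyme level in male RD replicates 1 to 3 was 14029, 16261 and 12565 CPM and in HFD replicates 1 to 3 it was 15311, 14983 and 14026 CPM. In females it was 5395, 11395 and 9449 CPM in RD and 10016, 10123 and 11269 CPM in HFD. The diets overlapped in both sexes, and the sums were 10.1-fold (7.56 to 13.0) and 8.11-fold (4.36 to 11.3) those of all keratinocytes.

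In these cells 24 of 28 members in males and 20 of 28 in females were higher than in all keratinocytes in all 6 libraries. The same was not counted over all genes. Lss, which closes squalene oxide to lanosterol, was 37.5-fold higher in males and 14.2-fold in females, Msmo1, a C4 demethylation enzyme, 28.1-fold and 20.6-fold, and Idi1, the isomerase of isopentenyl diphosphate, 25.1-fold and 17.7-fold. Sc5d, a desaturase near the end of the pathway, was the member lower in all 6 libraries of both sexes, with 17 UMIs in all in the male and 12 in the female cells. Srebf2 was 1.45-fold and 1.26-fold the level of all keratinocytes, a far smaller ratio than those of Lss, Msmo1 and Idi1. The enzyme Dhcr7 was also little raised, at 1.177-fold and 1.415-fold. Soat1, which esterifies cholesterol for storage, was at 1088 ± 115 CPM in males and 1020 ± 207 CPM in females. These cells gave 730 of the 791 Soat1 UMIs (92.3%) of the male migratory class and 641 of 690 (92.9%) in females, and without them the class had 2.01 and 1.62 CPM of Soat1 and a summed enzyme level of 997.5 ± 118 and 890.5 ± 52.9 CPM. The full sebocyte list of 5 genes, with Mgst1 included, summed over all keratinocytes was 62.1 to 68.6 CPM in male RD, 52.4 to 72.5 in male HFD, 133 to 145 in female RD and 107 to 138 in female HFD. Other marker lists in all keratinocytes stood apart between the diets at low levels. In males these were the LC list (23.8 to 28.7 CPM in RD, 17.2 to 23.1 in HFD), the T cell list (8.39 to 10.2 and 7.07 to 7.63) and the Merkel cell list (3.27 to 5.36 and 2.19 to 3.02), all lower in HFD. In females the T cell list (4.24 to 5.11 and 5.12 to 6.97) and the Merkel cell list (3.79 to 4.28 and 4.57 to 7.25) were higher in HFD. The part of these lists in the diet results was not tested.

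LC-like cells, the antigen-presenting cells of the epidermis, had a profile of the pathway unlike that of keratinocytes. There were 1066 such cells in males and 1811 in females, after a subcluster led by keratinocyte genes (279 and 318 cells) was set apart. Keratinocyte genes in the LC-like cells stood at 1.54% to 2.88% of their level in keratinocytes in males and at 1.34% to 1.84% in females, and the fibroblast and mast cell lists were at or near 0. The summed enzyme level was 1197 ± 294 CPM in males and 1571 ± 225 CPM in females, 2.32-fold and 3.21-fold that of basal cells. Dhcr7, the reductase of the last step to cholesterol, was at 5.47 ± 3.09 CPM in males and 5.46 ± 1.18 CPM in females, 0.115-fold (0.0759 to 0.238) and 0.140-fold (0.0927 to 0.190) the level of all keratinocytes. Mvk, mevalonate kinase, was also low in them against all keratinocytes, at 0.297-fold and 0.322-fold. Against basal cells alone male Mvk was 0.931-fold (0.470 to 1.49) and male Dhcr7 0.435-fold (0.280 to 1.18), with ranges on both sides of 1. In females both were below basal cells in all 6 libraries. Among the named classes Mvk was lowest in terminal cells, at 21.3 CPM in males and 8.84 CPM in females. The male Dhcr7 level rests on few UMIs per library.

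Other members were higher in LC-like cells than in all keratinocytes in every library of both sexes. Srebf2 was at 138 ± 13.6 CPM in males and 174 ± 17.8 CPM in females, 1.96-fold and 1.55-fold. Msmo1 was 1.90-fold and 2.56-fold higher. Against single keratinocyte classes these contrasts were smaller. Female squamous cells were at 168 CPM of Srebf2 and at 185 CPM of Msmo1, beside 184 CPM of Msmo1 in LC-like cells, and the ranges overlapped. In males the range of Msmo1 overlapped that of suprabasal cells (128 CPM against 95.0). Male Srebf2 did not overlap the next highest named class, suprabasal cells at 92.25 CPM. Npc2, which binds cholesterol in the lysosome and passes it on for export, was at 272 ± 9.65 and 248 ± 30.6 CPM, 2.76-fold and 2.04-fold. Soat1 was 16.5-fold and 14.7-fold higher, with wide ranges over libraries (7.29 to 43.8 and 10.6 to 22.8), from a level of 1.28 and 1.32 CPM in all keratinocytes. That base rests largely on the cells carrying sebocyte genes, whose migratory members gave 730 of 1006 and 641 of 1045 Soat1 UMIs of all keratinocytes, and most other keratinocyte classes lay lower. Idi1 was higher in every female library (2.28-fold, 1.69 to 3.94), while in males its ratio fell on both sides of 1 (0.638 to 1.37).

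In females 2 members were called over all keratinocytes, both lower in HFD, where called means an adjusted p under 0.05. Srebf2 was at 124, 132 and 123 CPM in RD replicates 1 to 3 and at 107, 98.4 and 92.2 CPM in HFD replicates 1 to 3. The groups did not overlap, and the log2 fold change was -0.41 (SE 0.08, adjusted p = 0.0361, edgeR's quasi-likelihood test with Benjamini-Hochberg adjustment over all genes). Npc1, the lysosomal membrane protein that exports cholesterol, was at 30.3, 29.8 and 29.96 CPM in RD and 25.2, 22.3 and 21.9 CPM in HFD. Its log2 fold change was -0.44 (SE 0.08, adjusted p = 0.0306, same test), again with no overlap. Of all 17726 genes tested 3.4% were called, and DESeq2 called 1527 genes, 4 members among them, adding Hmgcs1 and Stard4. Srebf2 lies at chr15:82147181-82205379 on the plus strand and Npc1 at chr18:12189692-12236400 on the minus strand (GRCm38, GENCODE vM21 gene bounds), and UMIs were counted per gene and not per exon. Left out in turn, female RD replicates 1, 2 and 3 and HFD replicate 3 each ended both calls. Of all genes 2, 2, 6 and 6 were then called, against 602 with every library. Without HFD replicate 1 there were 8 calls, all lower (Hmgcs1, Fdft1, Cyp51, Hsd17b7, Srebf2, Insig1, Stard4 and Npc1), among 536 of 18022 genes. Both calls stood without HFD replicate 2, the library of higher mitochondrial share. Fold changes were negative for 20 of 28 members with a median of -0.18, against 48.5% of all genes and a median of 0.01.

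A sum over all keratinocytes moves with the mix of classes as well as with the level per cell. In females volar cells were 13.9% to 16.4% of cells in RD and 11.3% to 13.4% in HFD. Mean shares in RD and HFD were 6.73% and 5.72% for squamous, 22.85% and 20.9% for suprabasal, and 27.7% and 30.8% for basal cells. The libraries of the 2 diets overlapped for these last classes. The classes were therefore tested one by one. In suprabasal cells Srebf2 was at 165, 169 and 162 CPM in RD and 135, 143 and 114 CPM in HFD, and Npc1 at 34.9, 36.6 and 35.5 CPM in RD and 28.9, 26.6 and 25.8 CPM in HFD. Both were called, with log2 fold changes of -0.39 (SE 0.08, adjusted p = 0.0285, edgeR's quasi-likelihood test with Benjamini-Hochberg adjustment) and -0.44 (SE 0.07, adjusted p = 0.0196), where 3.96% of all genes were called. Npc1 was also called in volar cells, at 22.3, 20.2 and 21.3 CPM in RD and 15.4, 17.1 and 15.6 CPM in HFD (log2 fold change -0.42, SE 0.09, adjusted p = 0.0444, edgeR), and in squamous cells, at 54.4, 50.7 and 51.6 CPM in RD and 42.9, 40.8 and 39.7 CPM in HFD (-0.37, SE 0.07, adjusted p = 0.0423, edgeR). All genes were called at 1.45% and 1.13% in those classes. These 4 calls came from 189 member and class pairs tested. There were 10 without HFD replicate 1, all in suprabasal cells, where 382 of 14104 genes were then called. There were 0 without any 1 of RD replicates 1, 2 and 3 or HFD replicate 3. In these fits 15, 22, 25 and 133 of all genes were called in suprabasal cells, against 547 with every library. In volar cells 5, 7, 3 and 58 were called, against 178, and in squamous cells 5, 8, 25 and 3, against 133.

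In each of the basal, proliferating, volar, suprabasal, squamous and migratory classes, every female HFD library lay below every RD library for both genes, called or not. The classes come from the same mice and make up the sum in which both genes were first called, so they are not separate observations. Not called, with log2 fold changes and adjusted p from edgeR's quasi-likelihood test, were basal Srebf2 (-0.29, 0.171) and Npc1 (-0.23, 0.240), proliferating Srebf2 (-0.37, 0.0515) and Npc1 (-0.38, 0.137), volar Srebf2 (-0.33, 0.0852), squamous Srebf2 (-0.29, 0.0638), and migratory Srebf2 (-0.31, 0.0973) and Npc1 (-0.48, 0.0599). Called shares of all genes were 0.626% in basal, 1.59% in proliferating and 0.594% in migratory cells. In basal cells Insig1 had the next smallest p (-0.35, adjusted p = 0.368, edgeR), and in proliferating cells Lbr lay above RD in every HFD library (0.27, adjusted p = 0.0809, edgeR), at 83.3, 75.5 and 81.8 CPM against 106, 93.7 and 95.6 CPM. In migratory cells Insig2 had the next smallest p (-0.28, adjusted p = 0.263, edgeR). In terminal cells 0% of all 7881 genes were called by edgeR, 622 having an unadjusted p under 0.05, and DESeq2 called 12, and the smallest p among members belonged to Hsd17b7 (-0.78), Cyp51 (-0.43) and Mvk (0.44).

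**Figure D3:**
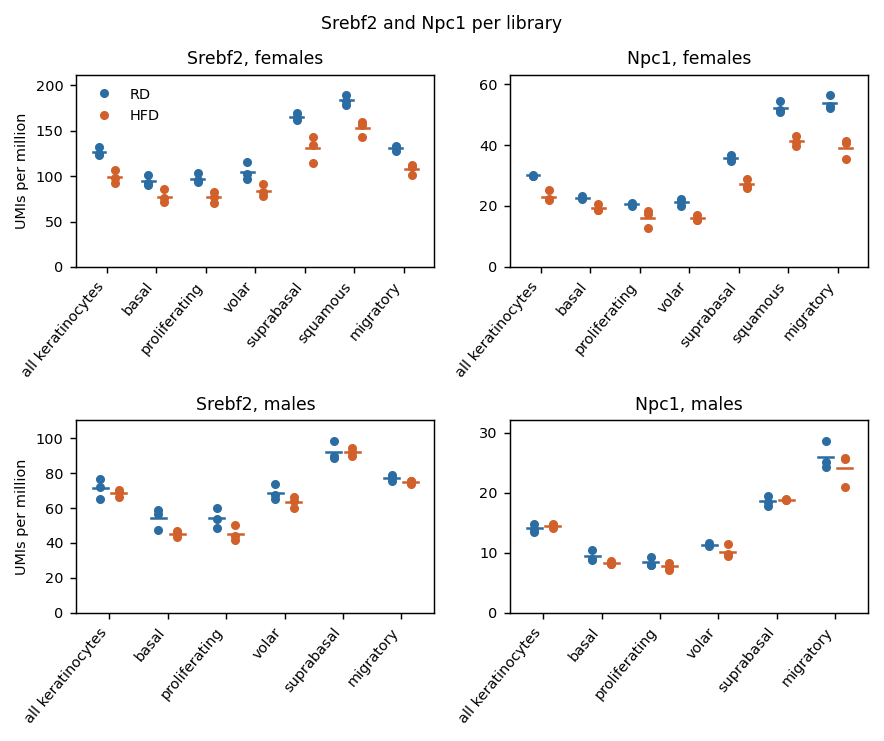
Levels of Srebf2 and Npc1 (CPM) in each library, RD blue and HFD orange, by cell class, with bars at the mean of 3 libraries, females in the upper and males in the lower panels. In females the orange points lie below the blue points in every column drawn, while in males the diets overlap in most classes. The terminal class is not drawn.

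Counted over members, every female HFD library lay below every RD library for 3 of 28 members in basal cells, where the same held for 10.2% of all genes, for 5 of 28 in proliferating cells (9.4% of all genes), for 6 of 27 in suprabasal cells (8.78%) and for 5 of 27 in volar cells (9.97%). It held for 2 of 27 in squamous cells (7.57%), 2 of 28 in migratory cells (9.26%) and 1 of 24 in terminal cells (3.08%). The opposite order held for 2 members each in proliferating, suprabasal and volar cells. It held for 3 in squamous, 1 in terminal and 0 in basal and migratory cells, and was not counted over all genes. In squamous cells 13 of 27 members had a negative fold change, with a median of 0.005. The 6 suprabasal members with HFD below RD in every library were Hmgcs1, Sqle, Msmo1, Srebf2, Stard4 and Npc1. Hmgcs1 was at 484, 504 and 485 CPM in RD and 443, 320 and 351 CPM in HFD there (log2 fold change -0.44, SE 0.12, adjusted p = 0.0690, edgeR), and Stard4 at 47.5, 42.7 and 39.0 CPM in RD and 38.7, 28.5 and 31.1 CPM in HFD (-0.43, SE 0.12, adjusted p = 0.0789, edgeR). HFD replicate 1 was the highest of the HFD libraries for both genes. For Ebp, which moves a double bond in the sterol ring, HFD lay above RD in every library in suprabasal, volar, proliferating and squamous cells, at 60.9, 62.6 and 58.6 CPM against 69.8, 72.0 and 70.2 CPM in squamous cells, with no call. The summed enzyme level in suprabasal cells was 1870, 1854 and 1757 CPM in RD and 1817, 1422 and 1509 CPM in HFD, and the groups overlapped.

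**Figure D4:**
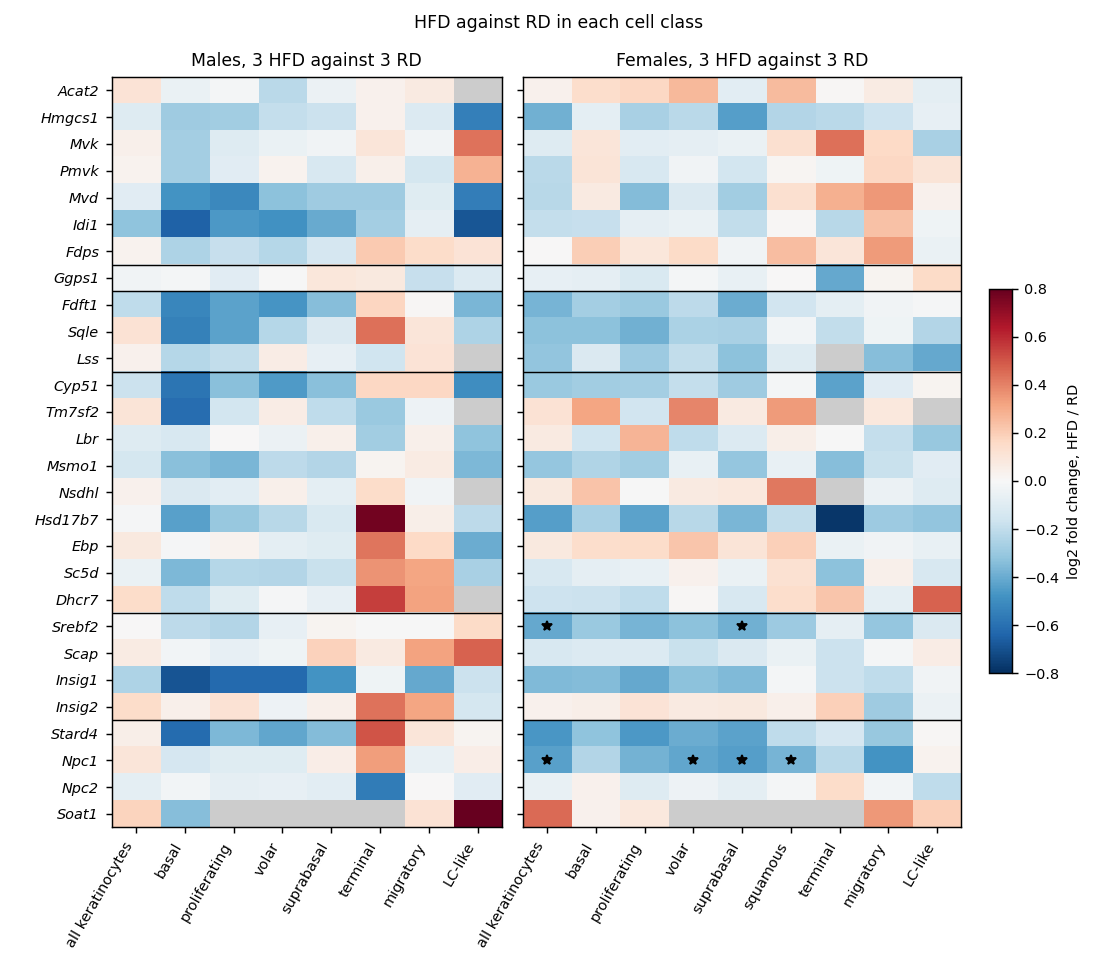
Log2 fold change of HFD against RD for each member (rows) in each class (columns), limited at ±0.8, males left and females right, with a star where the adjusted p was under 0.05 and grey where a gene was not tested. Stars stand at Srebf2 and Npc1 in females, and the male basal column is negative for 27 of 28 members with no star.

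In males no member was called in any comparison between the diets by edgeR, nor by DESeq2. Over all keratinocytes 0% of 15053 genes were called by edgeR, 1368 having an unadjusted p under 0.05, and DESeq2 called 194, and 12 of 28 members had a negative fold change with a median of 0.03. The smallest p values among members there were those of Dhcr7 (0.15), Insig2 (0.14) and Lbr (-0.11), in log2 fold change. Srebf2 and Npc1 had log2 fold changes of 0.00 and 0.10 and overlapped between the diets. The mix of classes differed between the diets in males: the Slc6a19-led cluster, where the enzyme sum was 5.76-fold the basal level, held 1.92% to 2.37% of cells in RD and 3.09% to 3.73% in HFD, and the Tubb3-led cluster 3.07% to 3.63% and 1.37% to 2.68%. With equal numbers of cells of each class 15 of 28 members had a negative fold change. The 3 clusters known by leading genes were not tested by diet on their own. In the migratory class 0% of genes were called (674 at an unadjusted p under 0.05, 27 by DESeq2), and the smallest p values were those of Insig2 (0.31), Scap (0.32) and Dhcr7 (0.32).

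In 4 of the 6 male classes tested most members had a negative fold change. In basal cells 27 of 28 members had a negative log2 fold change with a median of -0.27, against 50.6% of all genes, and 12 had an unadjusted p under 0.05, all lower. The median mitochondrial share of the libraries also stood apart by diet in males, at 3.09%, 3.15% and 3.40% in RD replicates 1 to 3 and 3.62%, 3.68% and 3.48% in HFD replicates 1 to 3, and its part in these values was not tested. Srebf2 was at 58.9, 47.5 and 56.6 CPM in RD and 46.7, 45.7 and 43.7 CPM in HFD, with no overlap, and a log2 fold change of -0.21 (adjusted p = 0.720, edgeR). All 7 mevalonate steps, all 3 squalene and lanosterol enzymes and all 9 later enzymes were among the 27. Called shares in basal, proliferating, suprabasal and volar cells were 0%, with 870, 881, 710 and 727 of all genes at an unadjusted p under 0.05 and 26, 32, 26 and 12 called by DESeq2. In proliferating cells 24 of 27 members had a negative fold change, in suprabasal cells 21 of 27 and in volar cells 23 of 27. In terminal and migratory cells most had a positive one, with 8 of 27 and 11 of 28 negative and medians of 0.08 and 0.04. Every HFD library lay below every RD library for 9 of 28 members in basal cells (11.1% of all genes), 3 of 27 in proliferating cells (8.19%), 4 of 27 in suprabasal cells (8.73%), 7 of 27 in volar cells (10%) and 2 of 28 in migratory cells (8.18%). The opposite order held for 1 member in suprabasal and 2 in migratory cells, and was not counted over all genes. The summed enzyme level in basal cells was 609, 519 and 591 CPM in RD and 448, 476 and 402 CPM in HFD, with no overlap, and in suprabasal cells it was 2274, 2153 and 2555 CPM against 2005, 1948 and 2099 CPM.

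**Figure D5:**
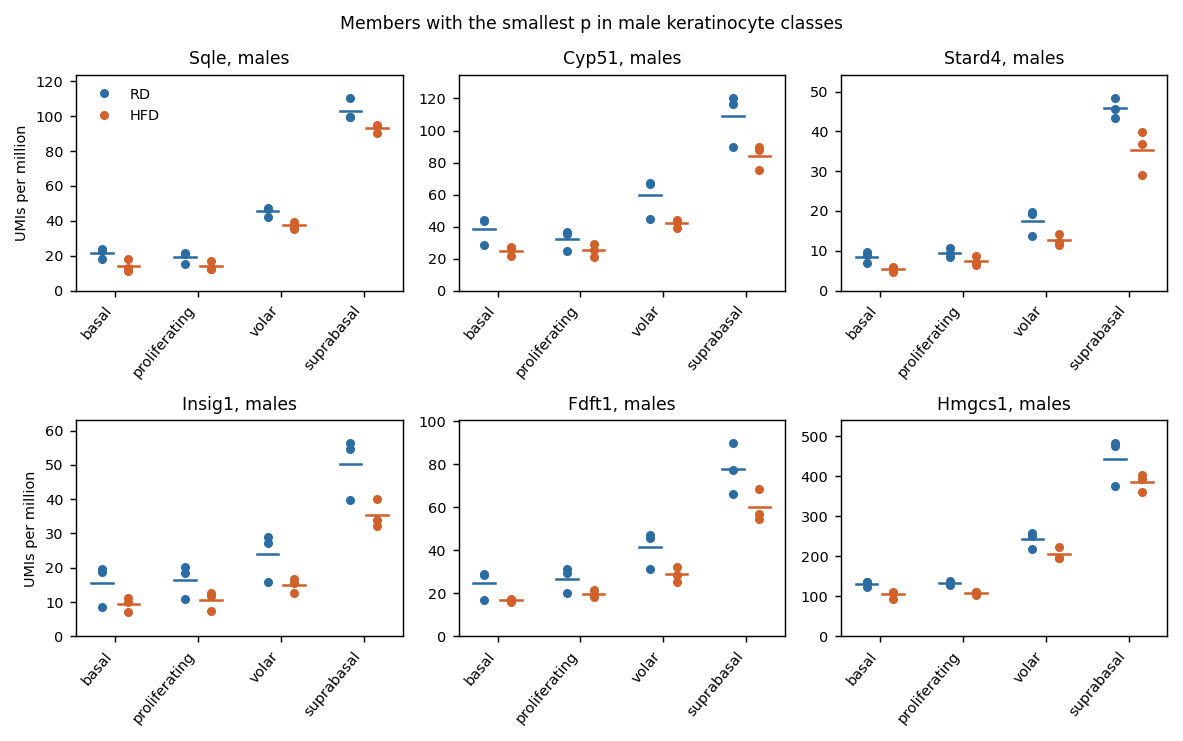
Levels (CPM) of Sqle, Cyp51, Stard4, Insig1, Fdft1 and Hmgcs1 in each male library in basal, proliferating, volar and suprabasal cells, RD blue and HFD orange, bars at the mean of 3. For Cyp51, Insig1 and Fdft1 the lowest blue point, RD replicate 2, sits next to the orange points while the other RD points lie above them.

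Among the members with the smallest p in male basal cells, Stard4 was at 9.74, 6.99 and 8.90 CPM in RD and 5.65, 5.95 and 4.63 CPM in HFD (log2 fold change -0.62, SE 0.16, adjusted p = 0.473, edgeR), and Cyp51, the lanosterol demethylase, at 44.4, 28.2 and 43.3 CPM in RD and 27.2, 26.4 and 21.3 CPM in HFD (-0.58, SE 0.17, adjusted p = 0.492, edgeR). Both groups stood apart, with RD replicate 2 nearest to HFD. Sqle, which oxidises squalene, was at 22.7, 18.1 and 23.9 CPM in RD and 13.2, 18.3 and 11.4 CPM in HFD (-0.54, SE 0.17, adjusted p = 0.525, edgeR), and these groups overlapped. In proliferating cells Hmgcs1 was at 130, 128 and 139 CPM in RD and 110, 110 and 102 CPM in HFD (-0.28, SE 0.07, adjusted p = 0.372, edgeR), followed by Mvd (-0.51) and Fdft1 (-0.43), which makes squalene. In suprabasal cells Insig1 was at 56.2, 39.8 and 54.6 CPM in RD and 39.9, 33.9 and 32.1 CPM in HFD (-0.48, SE 0.13, adjusted p = 0.514, edgeR), followed by Stard4 (-0.35) and Cyp51 (-0.34). RD replicate 2 lay just under the highest HFD library for Insig1. In volar cells Fdft1 was at 45.5, 31.6 and 47.0 CPM in RD and 28.7, 25.5 and 32.3 CPM in HFD (-0.47, SE 0.15, adjusted p = 0.700, edgeR), followed by Cyp51 (-0.45) and Insig1 (-0.62).

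Male RD replicate 2, the shallowest library per cell, lay at or near the HFD values for Idi1, Fdft1, Cyp51 and Insig1 in these classes. Without it 16 member and class pairs were called, all lower in HFD: Idi1, Fdft1, Cyp51, Hsd17b7, Insig1 and Stard4 in basal cells, Idi1 and Fdft1 in proliferating cells, Idi1, Cyp51, Msmo1 and Insig1 in suprabasal cells, and Idi1, Fdft1, Cyp51 and Insig1 in volar cells. Of all genes, 44 of 12599 were then called in basal, 32 of 12323 in proliferating, 41 of 11175 in suprabasal and 15 of 11751 in volar cells. Depth per cell also differed by diet in some male classes. In basal cells there were 8490, 5629 and 8907 UMIs per cell in RD replicates 1 to 3 and 11784, 9605 and 9030 in HFD. In volar cells there were 9156, 6423 and 9863 in RD and 13272, 10701 and 10794 in HFD. The diets overlapped in proliferating and suprabasal cells. The part of depth in these values, that of RD replicate 2 included, was not tested. In the terminal class, where every HFD library lay below every RD library for 25.2% of all genes and 7 of 27 members, 0% were called (2315 at an unadjusted p under 0.05, 110 by DESeq2) and the normalization factors ran from 0.740 to 1.41. Overlap of libraries was judged on CPM without these factors and fold changes were fitted with them, so their directions can differ. The smallest p there belonged to Hsd17b7 (0.77), Dhcr7 (0.55) and Npc2 (-0.56).

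The difference of the diet effect between females and males was given its own test in 1 fit of all 12 libraries. In all keratinocytes Npc1 was called, with a diet effect in females minus that in males of -0.52 on the log2 scale (SE 0.12, adjusted p = 0.0456, edgeR's quasi-likelihood test with Benjamini-Hochberg adjustment), and 1.53% of all genes were called. In males Npc1 had a log2 fold change of 0.10 beside -0.44 in females, both over all keratinocytes. In male basal cells the fold change of Npc1 was negative, as it was for all 4 transport and storage members. In male migratory cells 1 of these 4 was negative. The interaction was not tested in single keratinocyte classes. Srebf2 was not called (-0.40, adjusted p = 0.129, edgeR). Sex and software version cannot be told apart in this test. The call was lost without any 1 of male RD replicates 2 or 3, male HFD replicates 1 or 2, female RD replicates 1, 2 or 3, or female HFD replicates 2 or 3, with the 10% mitochondrial limit, with likely doublets removed and with equal numbers of cells of each class. In LC-like cells 0% of 8452 genes were called for the interaction by edgeR, 612 having an unadjusted p under 0.05, and DESeq2 called 0, and the smallest p among members were those of Idi1 (0.68), Soat1 (-0.74) and Mvk (-0.67).

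In LC-like cells no member was called by diet in either sex, by edgeR or DESeq2. In males 23 members were tested, 2 had an unadjusted p under 0.05, as did 481 of all 5835 genes, and 0.137% of all genes were called. Soat1 was at 10.9, 11.2 and 14.4 CPM in RD and 27.4, 18.8 and 24.5 CPM in HFD, with no overlap and a log2 fold change of 0.95 (SE 0.32, adjusted p = 0.393, edgeR). With 626531 to 888785 UMIs per male library in these cells, such levels rest on few molecules. The share of all genes without overlap was not counted in LC-like cells. Idi1 was at 165, 77.6 and 185 CPM in RD and 140, 67.5 and 57.6 CPM in HFD, which overlap, and Scap had a log2 fold change of 0.47 (adjusted p = 0.611, edgeR). In females 27 members were tested, none had an unadjusted p under 0.05, against 1155 of all 9190 genes, and 1.07% of all genes were called. The smallest p belonged to Npc2 (-0.20), Sqle (-0.23) and Hsd17b7 (-0.31), and Srebf2 and Npc1 had fold changes of -0.11 and 0.03.

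Among 48 other listed genes of sterol and lipid metabolism, Lipa, the lysosomal lipase that frees cholesterol from its esters, was called over all keratinocytes of females and was higher in HFD, at 2.13, 1.55 and 1.73 CPM in RD and 2.86, 2.89 and 3.08 CPM in HFD (log2 fold change 0.65, adjusted p = 0.0410, edgeR). Of all genes 3.4% were called there, and the result of 1 other listed gene is not reported here, so Lipa is not given as the only listed gene called. All 9 genes of SREBP processing and sterol-regulated degradation had negative fold changes over all female keratinocytes, and 7 of them had an unadjusted p under 0.05, as did 3858 of all 17726 genes. In suprabasal cells 5 of the 42 listed genes tested were called, beside 3.96% of all genes: Fasn, the fatty acid synthase (-0.45), Acaca (-0.31), Me1 (-0.36) and Osbp (-0.29) lower, and Lipa (0.99) higher. Fasn was at 67.9, 61.5 and 57.0 CPM in RD and 50.3, 44.5 and 45.4 CPM in HFD. In volar cells Fasn alone of the 42 tested was called, beside 1.45% of all genes, at 34.3, 34.2 and 31.7 CPM in RD and 24.1, 24.1 and 26.7 CPM in HFD (-0.43, adjusted p = 0.0290, edgeR). In males none of the 48 was called, and for the interaction in all keratinocytes Gramd1c (-1.06) and Lipa (0.97) were.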

How the data were processed

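The count matrices were made by the authors from 10x Genomics 3′ v3.1 libraries of dispase-separated, TrypLE-dissociated epidermis. The deposited values are raw counts of UMIs per gene and cell barcode, made with Cell Ranger 6.1.0 for males and 7.2.0 for females per the file headers (the submitters' processing notes name Cell Ranger 7.2.0 and Seurat 5.0.0) on GRCm38. Whether intronic reads were counted is not given in the sources used here, and a version that counts them can raise some genes.

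By the limits that the study states, cells were required to have 200 (male) or 500 (female) to 6000 genes and no more than 5% mitochondrial UMIs. The study reports more male cells per library than these limits kept here, so the male cells are not the same set. They were clustered per sex with Leiden (leidenalg 0.10.2, Python 3.11.15) on 10 principal components of 2000 variable genes, without the members and the other listed genes. A cluster took a class's name where at least 3 of its listed markers were enriched, unless its 10 leading genes held more markers of another class than of its own. The leading 10 held no marker of their own class in some named clusters (the female basal and suprabasal ones, for example). Doublets were not removed in the main values. UMIs were summed per library and class, and the diets were compared within each sex with edgeR 4.0.16 (R 4.3.3), using filterByExpr, TMM scaling and the quasi-likelihood test, with Benjamini-Hochberg adjustment over all genes tested and a threshold of 0.05. The test was checked on simulated counts with known fold changes. Cells carrying sebocyte genes and the subcluster led by keratinocyte genes were defined after seeing the data.

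The members and lists were chosen with earlier results of these data known. The text names the members past the threshold in each comparison, the 3 with the smallest p where there were none, and others that show the range of a role group. The result of 1 other listed gene is not reported here. Alternatives were DESeq2 1.42.0, no TMM, no filter, a replicate block, leaving out each library, a 10% mitochondrial limit, removal of likely doublets, 2 times the clustering resolution, 1 fit of all 12 libraries, equal class numbers and, for LC-like cells, those with fewer keratinocyte UMIs. Counts of 134449247 to 194673581 UMIs per library give the keratinocyte classes more precision than LC-like cells, with 626531 to 888785 UMIs per male and 1351973 to 2432236 per female library.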

Additional observations from a re-analysis of the deposited data

Results flagged for a closer look

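The diet effect on Npc1, the lysosomal exporter of cholesterol, differed between the sexes over all keratinocytes: the log2 fold change of HFD against RD in females minus that in males was -0.52 (SE 0.12, adjusted p = 0.0456, edgeR's quasi-likelihood test for the interaction). In females the 3 HFD libraries all lay below the 3 RD libraries, while in males the diets overlapped in this sum. In male basal cells taken alone the fold change of Npc1 was negative, and the interaction was not tested in single keratinocyte classes. Over 20 alternatives the difference ran from -0.61 to -0.37 and was past the threshold in 7. Sex and software version cannot be told apart.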

How the results depend on the processing

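In females the 2 calls over all keratinocytes became 4 with DESeq2, 0 with the replicate block and 0 to 8 when a library was left out. With the block 5 of all 17726 genes were called there, against 602 without it. The 4 class calls in females became 10 with DESeq2, 2 with total UMIs only, 24 with no filter on low counts, and 0 to 10 when a library was left out. Calls over all genes moved too: 0 to 547 per female class in the main values, 12 to 781 with DESeq2, 0 to 452 with total UMIs only and 105 to 1115 with no filter. In males the 0 class calls became 21 with no filter and 0 to 16 when a library was left out (16 without RD replicate 2, and 1, terminal Hsd17b7, without RD replicate 3, where 978 of 9733 genes were called in that class), and the 0 calls in LC-like cells became 2 with no filter (Hmgcs1 and Idi1), with 118 to 741 genes called per male class and 85 of 14918 in LC-like cells under that setting. The single interaction call over all keratinocytes became 0 with the replicate block, with the 10% mitochondrial limit, with likely doublets removed and with equal numbers of cells of each class, and 0 to 2 when a library was left out (2 without female HFD replicate 1, where 396 of 18299 genes were called). The cause was not tested in any of these cases, beyond the smaller number of libraries where one was left out.

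The replicate numbers were not taken to pair the samples, since not every same-numbered correlation was over 0.1: deviations of same-numbered libraries from their group means correlated at 0.0434 to 0.143 in male and -0.11 to 0.0561 in female keratinocytes, and at -0.0472 to 0.0781 and -0.0903 to 0.0378 in LC-like cells. Differently numbered pairs ran from -0.145 to 0.00802 in male and from -0.165 to 0.233 in female keratinocytes, and from -0.0736 to 0.0564 and -0.0746 to 0.0517 in LC-like cells. In male keratinocytes alone every same-numbered pair lay above every other pair, a hint from the data and not from the design. With the replicate block the female class calls numbered 3 (Srebf2, Stard4 and Npc1 in suprabasal cells, where 324 of 13802 genes were then called), and males had 0.

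The summed enzyme level moved in male terminal cells to 596.7 CPM with doublets removed, in male migratory cells to 2666 and in female migratory cells to 1422 with the 10% mitochondrial limit, and in female terminal cells to 410.3 with doublets removed. At 2 times the resolution, which regroups the cells, it was 2188 in female suprabasal, 1313 in volar, 3096 in squamous and 1070 in terminal cells. 2 uncalled fold changes lost their size and turned sign under 1 alternative each: Cyp51 in female terminal cells, -0.43 in the main values, was 0.0016 with doublets removed, and the Mvk interaction in LC-like cells, -0.67, was 0.0070 with the subcluster led by keratinocyte genes included, an alternative added after seeing the data. Of the remaining comparisons of single members with their alternatives, 643 kept direction and call, 49 kept direction and lost the call, and 30 kept direction and gained one.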

Other observations

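T cell-like cells (220 in males, 339 in females) had a summed enzyme level of 613.6 CPM in males and 617.8 CPM in females, while Lbr stood at 56.0 and 48.8 CPM and Ggps1 at 24.8 and 50.01 CPM. In the subcluster of LC-like cells led by keratinocyte genes, Dhcr7 was at 44.6 CPM in males and 31.2 CPM in females, against 5.47 and 5.46 CPM in the other LC-like cells. These values belong to no comparison of the design and were not tested.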
